A study of Homo sapiens with 48 samples.

Results

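PC-3 cells, a human prostate carcinoma line from a bone metastasis, were kept for 24 h at 1% or 2% O2 and were set against PC-3 cells kept in normoxia beside them. The comparison held 8 of the 48 bead arrays of the series: 4 hypoxia arrays (2 at 1% and 2 at 2% O2) and 4 normoxia arrays (2 controls for 1% and 2 for 2%), chosen by their sample titles alone, with the oxygen level as a block. All cells grew at 37 °C in RPMI-1640 with serum, antibiotics and glutamine, hypoxia in a sealed workstation and normoxia in 95% air, and the labels name no transgene or drug. The other arrays covered PC-3 at 4 further levels (0, 0.2 and 0.5% below, 5% above) and the prostate carcinoma line 22Rv1 at all 6, each group being a pair of arrays. Nothing in the labels tells whether a pair came from separate cultures, and each p-value below therefore reflects array-to-array spread that may be only technical. Each line stands for itself only, and the arrays averaged over all cells of a dish, so that fewer cells with a transcript and less transcript per cell cannot be told apart.

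Cells sense oxygen through prolyl hydroxylases that mark the alpha subunits of the hypoxia-inducible factors (HIF) for destruction by the VHL ubiquitin ligase. When oxygen is short the alpha subunits persist, pair with ARNT and bind a short core motif near genes for glucose uptake, glycolysis, blood vessel growth, collagen maturation and mitochondrial removal. Several HIF target genes, among them a prolyl hydroxylase, act back on the pathway.

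On the 8 arrays 14437 to 15723 of 47323 probes were detected at p under 0.01, and the arrays with the fewest detected probes were the first 1% hypoxia array and the second normoxia control for 2%. Over the genes tested, the log2 intensities of any pair of these arrays correlated at 0.98 to 0.99, a description across genes. KRT8, KRT18, KRT19 and EPCAM, which mark carcinoma epithelium, were detected on all 8 arrays, as were 5 of 6 genes fixed as marks of PC-3 (among them VIM, CD44, CAV1 and KRT7, with KRT5 on none). The androgen-driven genes KLK2 and KLK3 were detected on none. Of 15 marks of fibroblasts, leukocytes and endothelium, COL1A1, CD68 and PECAM1 were detected on all 8 arrays, LUM and CD14 on 5, and the other 10, among them COL1A2, PTPRC and VWF, on none. COL1A1, a collagen of fibroblasts, was 0.65 higher in hypoxia on the log2 scale, and its part in the results was not tested.

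In PC-3 at 1 and 2% O2 the transcripts that rose most were those of ANGPTL4 and NDRG1, and HIF1A fell most, by less than either rise. Of 12590 genes tested with limma, 617 differed between hypoxia and normoxia at an adjusted p under 0.05 (4.9% of the genes tested), 435 higher in hypoxia (3.46%) and 182 lower (1.45%). Of these, 53 were at least 2-fold higher and 0 were at least 2-fold lower. The 4 hypoxia and the 4 normoxia arrays did not overlap for 1725 genes, 13.7% of those tested. The median change of all genes was -0.02 on the log2 scale. Treating every hypoxia array and its own numbered control as a pair gave 2777 calls (22.1% of the genes tested), 1356 higher (10.8%) and 1421 lower (11.3%), and 20.3% of the genes were at an unadjusted p under 0.05 in the reported fit. Median centring instead of quantile scaling gave 273 calls, of which 95.6% were higher, against 70.5% in the reported fit. Single arrays weighed on the count: it was 274 without the first and 337 without the second 1% hypoxia array, 258 without the second 2% hypoxia array, 315 without the first and 280 without the second control for 1%, and 307 without the first control for 2%. Without the 2 arrays that detected the fewest probes it was 228, 202 higher and 26 lower.

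ANGPTL4, which is secreted and blocks lipoprotein lipase, rose most. Its log2 intensity was 11.54 and 10.75 at 1% and 10.13 and 10.75 at 2% O2, against 7.81 and 6.81 in the controls for 1% and 7.68 and 7.26 in those for 2%. Every hypoxia array lay more than 2 log2 units above every normoxia array. The change was 3.40 ± 0.27 (SE; limma adjusted p = 0.000107), a 10.6-fold rise. Its other probes had changes of 1.497 and 0.83, so that the size depends on the probe. NDRG1, a differentiation-associated protein of the cytoplasm, read 13.19, 13.33, 12.25 and 13.27 in hypoxia against 10.70, 10.997, 10.37 and 11.14 in normoxia, with no overlap. It rose by 2.21 ± 0.22 on the log2 scale, 4.63-fold (limma adjusted p = 0.00034).

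PPFIA4, a liprin that binds receptor tyrosine phosphatases, was detected on all 4 hypoxia arrays, at 6.70, 6.41, 6.53 and 6.49, and on no normoxia array, where it read 4.56, 4.45, 4.65 and 4.84. Against the lowest signal counted as above background it was at least 2.72-fold higher in hypoxia (limma adjusted p = 3.23e-05). The same pattern held for KISS1R, the receptor for kisspeptin, at 7.06, 6.50, 6.38 and 6.67 in hypoxia and below detection on all 4 normoxia arrays, a rise of at least 2.96-fold (limma adjusted p = 0.00018). DDIT4, which restrains the growth kinase complex mTORC1, read 9.61, 9.41, 8.71 and 9.45 in hypoxia against 7.48, 7.55, 7.40 and 7.61 in normoxia and rose 3.45-fold. ITPR1, a calcium release channel of the endoplasmic reticulum, read 9.85, 9.41, 9.12 and 9.81 in hypoxia against 7.95, 7.52, 7.90 and 7.96 in normoxia. It rose by 1.72 ± 0.17 on the log2 scale, 3.29-fold (limma adjusted p = 0.00034). For both genes the normoxia arrays spanned a narrow range and the first 2% hypoxia array was the lowest of the 4 in hypoxia.

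The promoters of the 4 largest rises with an entry outside the chromosome left out here are shown because HIF binds the core letters ACGTG or GCGTG. The windows, from RefSeq (GRCh38.p14), run from 250 bases before to 50 after the gene start on the plus strand, and capitals mark either motif as read on either strand. They lie at chr19:8363905-8364204 for ANGPTL4, chr1:203026241-203026540 for PPFIA4, chr10:72273674-72273973 for DDIT4 and chr3:4493098-4493397 for ITPR1. DDIT4 held 4 matches and ANGPTL4 and ITPR1 held 1 each, while PPFIA4 held 3, a pair of which overlap in the palindrome CACGTG.
ANGPTL4: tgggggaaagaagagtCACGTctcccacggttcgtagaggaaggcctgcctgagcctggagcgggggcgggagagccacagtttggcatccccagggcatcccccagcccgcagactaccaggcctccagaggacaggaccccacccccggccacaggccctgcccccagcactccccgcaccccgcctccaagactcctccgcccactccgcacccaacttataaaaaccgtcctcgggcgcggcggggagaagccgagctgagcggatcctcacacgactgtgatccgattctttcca
PPFIA4: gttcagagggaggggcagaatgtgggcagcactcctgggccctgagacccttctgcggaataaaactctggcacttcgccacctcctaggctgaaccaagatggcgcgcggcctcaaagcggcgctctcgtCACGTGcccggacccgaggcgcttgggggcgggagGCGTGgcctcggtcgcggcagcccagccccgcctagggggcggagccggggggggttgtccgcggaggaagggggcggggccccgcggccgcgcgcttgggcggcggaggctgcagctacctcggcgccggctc
DDIT4: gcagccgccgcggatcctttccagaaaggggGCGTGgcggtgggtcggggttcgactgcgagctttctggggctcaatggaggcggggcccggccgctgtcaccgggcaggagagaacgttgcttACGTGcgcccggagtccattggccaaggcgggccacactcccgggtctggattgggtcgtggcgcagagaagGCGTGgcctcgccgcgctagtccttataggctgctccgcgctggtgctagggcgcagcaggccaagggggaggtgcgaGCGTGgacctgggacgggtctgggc
ITPR1: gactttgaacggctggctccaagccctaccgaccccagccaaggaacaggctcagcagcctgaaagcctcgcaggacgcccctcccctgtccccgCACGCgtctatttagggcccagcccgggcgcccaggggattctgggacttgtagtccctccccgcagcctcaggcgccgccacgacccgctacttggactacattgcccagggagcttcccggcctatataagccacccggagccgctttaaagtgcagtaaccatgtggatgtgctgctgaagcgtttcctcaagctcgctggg

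Such matches were common in promoters of every kind. On either strand ACGTG or GCGTG was present in 48.4% of all 27305 promoters of this length and in 64.2% of the 8447 belonging to tested genes. The share was 63.3% of 313 promoters of genes called higher and 68.3% of 145 of genes called lower. For ACGTG alone the shares were 31.9% among genes called higher, 24.8% among genes called lower and 27.4% among the tested genes.

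The rest of the 20 largest rises joined secreted peptides, membrane proteins and glucose enzymes. ADM, the vasodilator adrenomedullin, read 10.78, 11.17, 10.12 and 10.94 in hypoxia against 8.89, 9.63, 8.54 and 9.13 in normoxia, a 3.26-fold rise. COL7A1, the collagen of anchoring fibrils, had little spread, at 7.998, 8.19, 7.96 and 8.21 in hypoxia against 6.46, 6.53, 6.33 and 6.65 in normoxia, and rose by 1.60 ± 0.11 on the log2 scale (limma adjusted p = 3.23e-05). ADAM8, a membrane-anchored metalloprotease, varied more: it read 7.66, 8.05, 6.79 and 7.88 in hypoxia against 5.88, 6.41, 5.70 and 6.22 in normoxia. SLCO4A1 (an organic anion transporter) rose 3.08-fold, TMEM45A 2.82-fold, OSBP2 (an oxysterol-binding protein) 2.61-fold, ITGB4 (the integrin of hemidesmosomes) 2.61-fold, SPAG4 2.53-fold and CCNG2 (cyclin G2, which slows the cell cycle) 2.48-fold. DEPP1, named C10orf10 on the array, and UCN2 (a peptide of the corticotropin-releasing family) rose 2.78-fold and 2.59-fold and were detected on 4 hypoxia arrays and 1 normoxia array each. Within hypoxia the first 2% array was the lowest for 18 of these 20 genes and its own control was the lowest normoxia array for 11. The plot of intensities on each array shows 8 of these rises beside 4 falls.

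**Figure D1:**
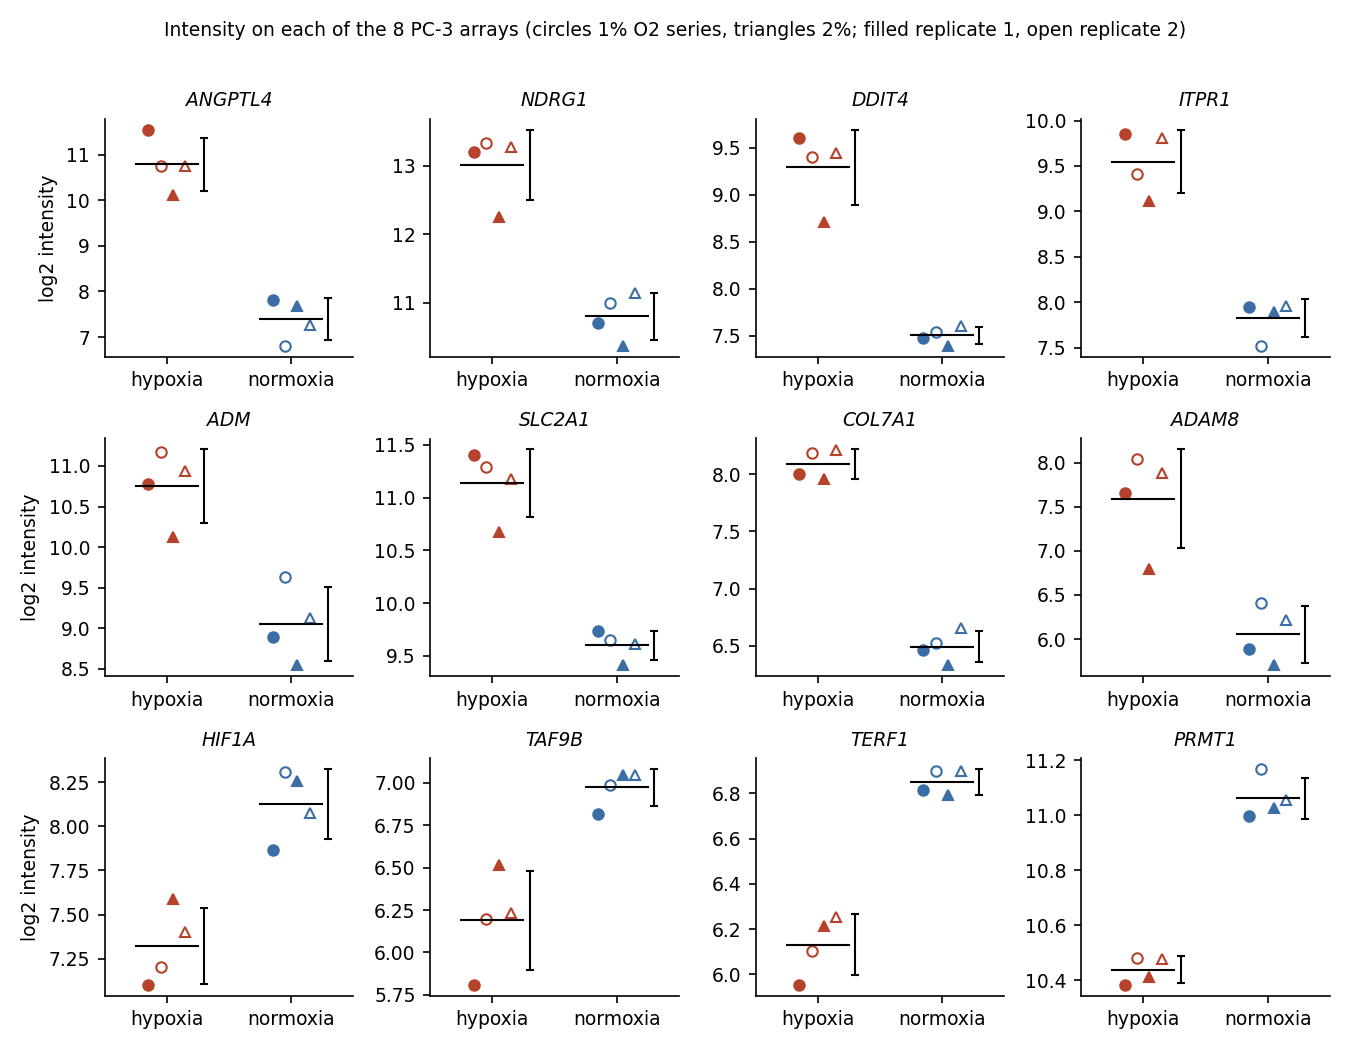
Log2 intensity of 12 genes on the 4 hypoxia arrays (left in each panel) and the 4 normoxia arrays (right) of PC-3, with circles for the 1% series, triangles for the 2% series, filled marks for replicate 1 and open marks for replicate 2. Lines are means and bars the SD over 4 arrays; the groups do not overlap in any panel, and the vertical axes differ in range and do not start at 0.

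The falls were small, and the largest was that of HIF1A, the gene of the alpha subunit of HIF-1. Its log2 intensity was 7.10, 7.20, 7.59 and 7.40 in hypoxia against 7.87, 8.31, 8.25 and 8.07 in normoxia, and the groups did not overlap. It fell by 0.80 on the log2 scale (SE 0.12, limma adjusted p = 0.00367), 1.75-fold lower in hypoxia, and its other probes had changes of -0.84 and -0.91. TAF9B, a subunit shared by transcription factor complexes and named TAF9L on the array, read 5.81, 6.20, 6.51 and 6.23 in hypoxia against 6.81, 6.99, 7.05 and 7.05 in normoxia and was 1.72-fold lower in hypoxia. PRMT1, the main asymmetric arginine methyltransferase, varied little within a group, at 10.38, 10.48, 10.41 and 10.48 in hypoxia against 10.997, 11.17, 11.03 and 11.06 in normoxia. It fell by 0.62 on the log2 scale (SE 0.07, limma adjusted p = 0.000522), 1.54-fold lower in hypoxia. The PRMT1 call was lost under median centring and at 2% O2 alone.

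Of the other leading falls, POLR1G (CD3EAP on the array), a subunit of RNA polymerase I, was 1.65-fold lower, TERF1, which binds telomere repeats, 1.65-fold, and VASH2, a tubulin carboxypeptidase, 1.60-fold lower in hypoxia. PCDH20 (a protocadherin), SDSL, FAM86C and RAB3IL1 were 1.55- to 1.60-fold lower, and FAM86C has near-identical copies that its probe may not separate. PAFAH2, which removes oxidised acyl chains from phospholipids, was 1.63-fold lower and was detected on 2 of the 4 hypoxia arrays. TMEM52 was detected on no hypoxia array and on all 4 normoxia arrays, at least 1.30-fold lower in hypoxia. PCDH20 and PAFAH2 each lost the call in 9 other settings, and SDSL, FAM86C and RAB3IL1 lost it under median centring. Under median centring 12 genes in all were called lower and 261 higher, against 182 lower and 435 higher in the reported fit.

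Lists of genes with a shared role were drawn up with earlier results of these data known, and their counts are a description. Of 24 HIF target genes 22 were measured, PDK1 and EGLN3 being detected on fewer than 2 arrays, and 17 of the 22 rose and 0 fell, beside 3.46% of all genes called higher. The median change of the 22 was 1.05 on the log2 scale, beside -0.02 for all genes, and all 22 changes were positive. Besides the genes above, PFKFB3 rose 2.33-fold, STC2 (a secreted glycoprotein) 2.30-fold and ANKRD37 2.46-fold. VEGFA, the main growth factor of blood vessels, read 7.70, 7.74, 7.18 and 7.77 in hypoxia against 6.53, 6.69, 6.46 and 6.98 in normoxia, a 1.91-fold rise. The 5 that did not pass were FAM162A at 0.99 ± 0.36, KDM3A at 0.65 ± 0.20 and LDHA at 0.18 ± 0.05 (log2 change ± SE), with LOX and CA9, whose normoxia signal was below detection. LOX, which crosslinks collagen, was detected on all 4 hypoxia arrays and was at least 1.33-fold higher (limma adjusted p = 0.0646). CA9, a carbonic anhydrase of the cell surface often used as a hypoxia mark, was detected on 2 of 4 hypoxia arrays and on no normoxia array (limma adjusted p = 0.128). LDHA, lactate dehydrogenase A, differed little, at 13.92, 14.01, 13.85 and 13.87 in hypoxia against 13.72, 13.74, 13.74 and 13.70 in normoxia. Its other probes had changes of 0.24 ± 0.05 and 0.55 ± 0.20. The former passed among all probes (limma adjusted p = 0.0182) and the latter did not, so that the LDHA call depends on the probe. FAM162A, a mitochondrial protein, was higher in replicate 2 of every group, at 7.25, 8.19, 6.70 and 7.997 in hypoxia against 6.12, 7.01, 5.88 and 7.16 in normoxia, and the groups overlapped. Blocked by pairs, all 22 passed as higher, beside 10.8% of all genes called higher in that fit.

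**Figure D2:**
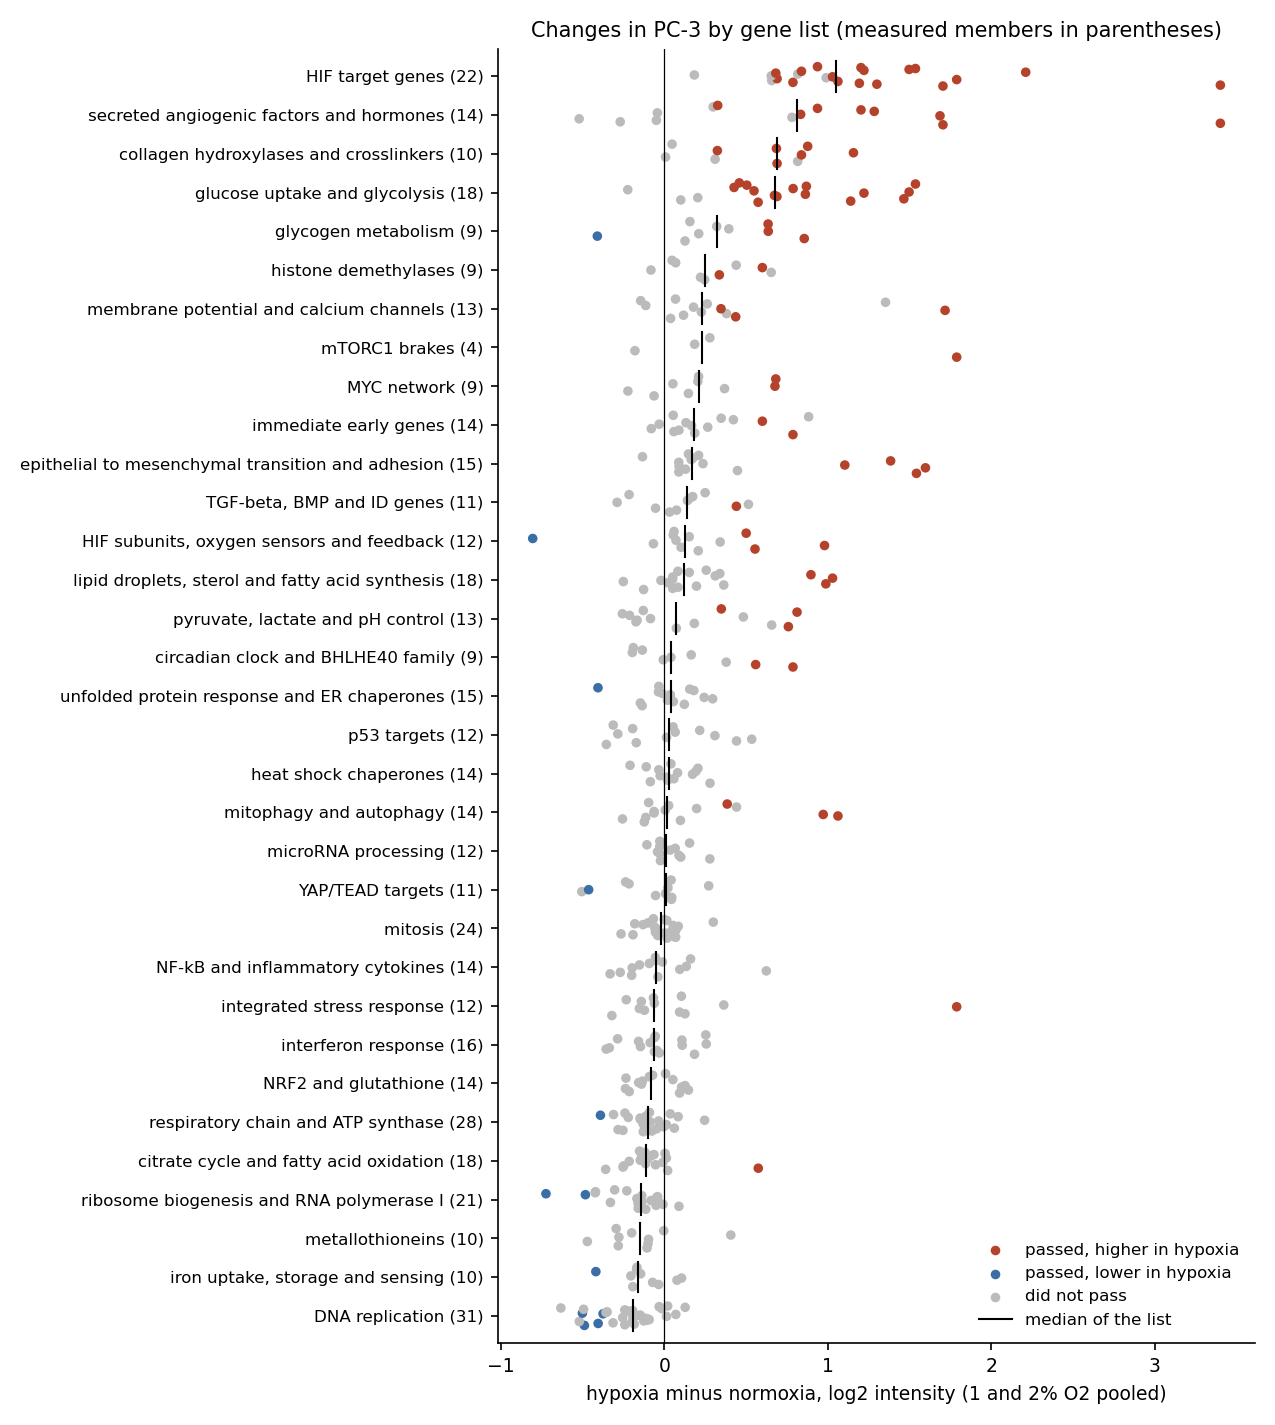
Change of each measured gene in PC-3 (hypoxia minus normoxia, log2 intensity, 1 and 2% pooled) for 33 gene lists ordered by their median (black line), with the number of measured genes in parentheses. Red points passed and were higher in hypoxia, blue points passed and were lower, and grey points did not pass; HIF target genes lie farthest to the right with a median of 1.05.

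Among the pathway's own subunits, sensors and feedback genes a few passed. EGLN1, the prolyl hydroxylase PHD2, read 7.69, 7.68, 7.78 and 7.43 in hypoxia against 6.66, 6.53, 6.73 and 6.74 in normoxia and rose 1.97-fold (limma adjusted p = 0.000538). CITED2, which competes with HIF for the coactivator EP300, rose by 0.55 ± 0.12 and SIAH2, a ubiquitin ligase acting on prolyl hydroxylases, by 0.50 ± 0.11 on the log2 scale. Of 12 measured subunits, sensors and feedback genes these 3 rose and HIF1A fell, beside 3.46% higher and 1.45% lower among all genes. CITED2 and SIAH2 each lost the call in 10 of 26 other settings. Under median centring, or without the 2 arrays that detected the fewest probes, 1 gene of the list rose. EPAS1, the HIF-2 alpha subunit, had a change of 0.07 ± 0.13, ARNT of 0.21 ± 0.17, VHL of 0.06 ± 0.10 and EGLN2 of -0.07 ± 0.07.

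Glucose uptake and glycolysis genes mostly rose. Of 18 measured genes 15 rose and 0 fell, beside 3.46% of all genes called higher, with a median change of 0.68. SLC2A1, the glucose transporter GLUT1, read 11.40, 11.30, 10.67 and 11.17 in hypoxia against 9.73, 9.65, 9.41 and 9.61 in normoxia and rose 2.90-fold (limma adjusted p = 4.54e-05). PFKFB4, an enzyme that sets the level of the glycolytic activator fructose-2,6-bisphosphate, rose 2.82-fold, the enolase ENO2 2.76-fold and the aldolase ALDOC 2.20-fold. HK2, the inducible hexokinase, rose by 0.86 ± 0.09, PFKP by 0.79 ± 0.07, GPI by 0.69 ± 0.09 and HK1 by 0.67 ± 0.07 on the log2 scale. PGK1 read 13.23, 13.11, 13.35 and 13.22 in hypoxia against 12.32, 12.30, 12.35 and 12.46 in normoxia, a 1.83-fold rise. The 3 that did not pass were GAPDH at 0.21 ± 0.06, ENO1 at 0.10 ± 0.05 and the muscle-type phosphofructokinase PFKM at -0.22 ± 0.10. Under median centring 10 of the genes passed, and without the 2 arrays that detected the fewest probes 13.

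Beyond glycolysis the carbon pathways were uneven. SLC16A3, the lactate exporter MCT4, rose by 0.81 ± 0.08 and the carbonic anhydrase CA12 by 0.76 ± 0.14 on the log2 scale. In all, 3 of 13 measured genes for pyruvate, lactate and pH rose (3.46% of all genes), and 6 passed as higher and 2 as lower when blocked by pairs (10.8% and 11.3% of all genes). For glycogen the branching enzyme GBE1 rose by 0.86 ± 0.09, PGM1 by 0.64 ± 0.07 and the phosphorylase PYGL by 0.63 ± 0.10, while the primer protein GYG1 fell by 0.41 (SE 0.08). The respiratory chain and ATP synthase had a median change of -0.10 over 28 genes, of which SDHC was called lower, with a change of -0.39 ± 0.09. That call was lost in 15 of 26 other settings, median centring among them, and a second SDHC probe had a change of -0.04 ± 0.09. Blocked by pairs, 5 of the 28 were lower, beside 11.3% of all genes. ACADVL, which starts the oxidation of long fatty acids, rose by 0.57 ± 0.07, the one call among 18 genes of the citrate cycle and fatty acid oxidation, of which 3 were called lower when blocked by pairs. The lipid droplet proteins HILPDA (C7orf68 on the array) and PLIN2 rose 1.98-fold and 1.86-fold, and the sterol regulator INSIG2 2.04-fold, 3 of 18 lipid genes beside 3.46% of all genes, or 7 beside 10.8% when blocked by pairs.

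Secreted factors and matrix enzymes were a further group of rises. Among 14 secreted factors and hormone genes 8 rose and 0 fell, beside 3.46% of all genes called higher. Besides ANGPTL4, ADM, KISS1R, STC2 and VEGFA these were STC1, a stanniocalcin detected on 1 normoxia array, at 1.28 ± 0.12, the platelet-derived growth factor PDGFB at 0.83 ± 0.13 and the lymphatic factor VEGFC at 0.33 ± 0.07. CXCL8 had a change of -0.27 ± 0.21 and FGF2 of -0.52 ± 0.14. Blocked by pairs, 10 genes of this list were called higher and 2 lower, beside 10.8% and 11.3% of all genes. Of 10 measured collagen hydroxylases and crosslinkers 6 rose, and among adhesion genes 4 of 15, beside the same 3.46%. P4HA2, a collagen prolyl hydroxylase, read 9.72, 9.52, 9.08 and 9.33 in hypoxia against 8.32, 8.19, 8.04 and 8.46 in normoxia, a 2.23-fold rise. The lysyl hydroxylases PLOD2 and PLOD1 rose 1.84-fold and 1.61-fold, P4HA1 1.79-fold, the disulfide oxidase ERO1A (ERO1L on the array) 1.61-fold and P4HB by 0.33 ± 0.07 on the log2 scale. In the list of adhesion and epithelial to mesenchymal transition genes those that rose were COL7A1, ADAM8, ITGB4 and ITGA5, the last by 1.10 ± 0.23. The transition's own marks did not pass, with CDH1 at 0.45 ± 0.13, VIM at 0.15 ± 0.10 and SNAI2 at -0.13 ± 0.13.

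Genes for mitochondrial removal and for transcription control held a few calls each, to be read beside 3.46% of all genes called higher, or 10.8% when blocked by pairs. BNIP3, a mitophagy receptor, varied little within a group, at 12.54, 12.64, 12.60 and 12.63 in hypoxia against 11.65, 11.48, 11.45 and 11.57 in normoxia (2.09-fold, limma adjusted p = 2.98e-05). Its relative BNIP3L rose 1.96-fold and the autophagy kinase ULK1 1.31-fold, 3 of 14 autophagy genes. MXI1 and MXD1, which compete with MYC for MAX, rose by 0.68 ± 0.14 and 0.68 ± 0.13, while MYC had a change of 0.21 ± 0.08. The repressors BHLHE40 (BHLHB2 on the array) and BHLHE41 rose by 0.79 ± 0.11 and 0.56 ± 0.11. The histone demethylases KDM4B (JMJD2B) and KDM2B (FBXL10) rose by 0.60 ± 0.15 and 0.34 ± 0.07, 2 of 9, or 6 when blocked by pairs. The KDM4B call was lost in 16 of 26 other settings, among them whichever single array was left out. A second KDM2B probe had a change of -0.23 ± 0.16, and the mean of its probes gave 0.05. For the MYC network the count was 2 of 9, and 5 when blocked by pairs. The immediate early genes DUSP1 and JUN rose by 0.79 ± 0.18 and 0.60 ± 0.15, 2 of 14, and 7 when blocked by pairs. ID1 rose by 0.44 ± 0.10 and the calcium release channel ITPR3 and the sodium pump subunit ATP1B1 by 0.35 ± 0.09 and 0.44 ± 0.09. A second ID1 probe had a change of 0.04 ± 0.14. Calls were lost in 12 of 26 other settings for each of ID1, ULK1, JUN and ATP1B1, in 11 for KDM2B and in 10 for DUSP1. The channel subunit SCNN1G was detected on 3 hypoxia arrays and no normoxia array and did not pass (limma adjusted p = 0.0543; 1.04e-05 when blocked by pairs). The first 2% hypoxia array read 4.81 and the other hypoxia arrays 6.54, 6.71 and 6.70, and its second probe passed among all probes (adjusted p = 0.0356). Without the 2 arrays that detected the fewest probes no gene of the histone demethylase, MYC network, immediate early or ID lists passed.

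Genes of DNA replication and ribosome biogenesis held a few falls, and those of mitosis none. In DNA replication 4 of 31 measured genes fell and 0 rose, beside 1.45% of all genes called lower. These were the primase PRIM1, read at 7.92, 8.22, 8.15 and 8.05 in hypoxia against 8.57, 8.77, 8.75 and 8.27 in normoxia, CCNE2 (cyclin E2), GINS2 and POLE2, with changes of -0.50 ± 0.12, -0.49 ± 0.11, -0.40 ± 0.09 and -0.37 ± 0.09. The list's median change was -0.19, and 15 of the 31 fell when blocked by pairs, beside 11.3% of all genes. In contrast, 0 fell under median centring or without the 2 arrays that detected the fewest probes. Mitosis genes had a median of -0.02 whose sign turned in 7 of 26 settings (0.01 under median centring). Of 24, 0 passed in limma, with 1 at an unadjusted p under 0.05 (20.3% of all genes) and 2 when blocked by pairs (22.1%). In ribosome biogenesis POLR1G and POLR1E, both subunits of RNA polymerase I, fell, the second by 0.48 (SE 0.09), 2 of 21 genes beside 1.45% of all genes. The count was 6 when blocked by pairs, beside 11.3% of all genes. It was 1 under median centring and 0 without the 2 arrays that detected the fewest probes, and POLR1E lost its call in 8 of 26 settings. Single falls were called for SDF2L1 of the endoplasmic reticulum at -0.41 ± 0.09, the iron importer SLC11A2 at -0.42 ± 0.09 and the matrix protein CCN2 (CTGF on the array) at -0.46 ± 0.08. All 3 lost the call under median centring, and SDF2L1 lost it whichever single array was left out.

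Several stress programmes had no call of their own. Heat shock chaperones (14 genes), p53 targets (12), NRF2 and glutathione genes (14), inflammatory cytokines and NF-kB (14), interferon response genes (16), metallothioneins (10) and microRNA processing genes (12) each held 0 genes past the limma threshold. Blocked by pairs they held 2 to 6 each or, for microRNA processing, 1, beside 22.1% of all genes. The 6 were p53 targets, 4 of 12 higher and 2 lower, beside 10.8% and 11.3% of all genes. The cytokine IL11 had a change of 0.62 ± 0.19 and the metallothionein MT1G, whose copies are close in sequence, of -0.47 ± 0.29. At an unadjusted p under 0.05 these lists held 1 gene each, except NRF2 and interferon with 2 and p53 with 5, beside 20.3% of all genes. In the integrated stress response DDIT4 alone rose, while ATF4 had a change of 0.09 ± 0.15, DDIT3 of -0.15 ± 0.14 and ASNS of -0.32 ± 0.11.

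The effects at 1% and at 2% O2 did not separate gene by gene. In a fit of the 24 PC-3 arrays with each level set against its own controls, 0 of 13963 genes (0%) differed between the effect at 1% and the effect at 2%, with 217 at an unadjusted p under 0.05, and 0 with the pairs as a block. The SE of this difference was 0.27 for a median gene, so differences of that size could not be seen. Of the 435 genes called higher, 354 had a larger rise at 1%, with median changes of 0.66 at 1% and 0.54 at 2%. Of the 182 called lower, 133 had a larger fall at 1%. ANGPTL4 had changes of 3.84 ± 0.38 at 1% and 2.96 ± 0.38 at 2%, a difference of 0.87 ± 0.53 (limma adjusted p = 1.00). Taken alone in this fit, 1% gave 264 genes higher and 94 lower, and 2% gave 83 higher and 2 lower. The controls for 1% and for 2% differed at 0 of 13963 genes (0%; limma, 243 at an unadjusted p under 0.05; 0 also with the replicate number as a term).

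Set among the other levels, 1 and 2% O2 lay between 0.2 and 0.5% and 5% for most of the genes called. The median change of the 435 was 0.74 at 0.2 and 0.5%, 0.66 at 1%, 0.54 at 2% and 0.30 at 5%. The rise was larger at 0.2 and 0.5% for 332 of them and smaller at 5% for 394. Since those genes were chosen at 1 and 2%, these counts are a description. By test, 0 of 13963 genes (0%) differed between the effect at 1 and 2% and that at 0.2 and 0.5% (limma, 831 at an unadjusted p under 0.05), and 0 of 13963 (0%) between 1 and 2% and 5% (480 unadjusted). With same-numbered hypoxia and control arrays as a block, 259 genes (1.85%) differed from 0.2 and 0.5%, 83 above and 176 below, and 69 (0.494%) from 5%, 59 above and 10 below.

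ANGPTL4, NDRG1, SLC2A1, DDIT4 and ITPR1 were among both sets. For ANGPTL4 the effect at 1 and 2% was 1.40 ± 0.18 lower than at 0.2 and 0.5% and 1.92 ± 0.22 higher than at 5% with the block (adjusted p = 4.31e-05 and 1.19e-05), against adjusted p = 0.642 and 1.00 without it. HIF1A fell less at 1 and 2% than at 0.2 and 0.5%, by 0.78 ± 0.13, and more than at 5%, by 0.69 ± 0.16 (adjusted p = 0.00081 and 0.0382 with the block, 0.642 and 1.00 without it). Among the 20 largest rises 13 were lower than at 0.2 and 0.5% and 14 higher than at 5% in the blocked fit. These 20 were chosen for their size at 1 and 2%, which favours an effect above that at 5%, so the counts are a description. COL7A1 kept nearly 1 size, with changes of 1.76 ± 0.22 at 0.2%, 1.68 ± 0.22 at 0.5%, 1.60 ± 0.22 at 1%, 1.60 ± 0.22 at 2% and 1.51 ± 0.22 at 5%, and was the single gene called at 5% in PC-3. Its difference between 1 and 2% and 5% was 0.09 ± 0.27.

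**Figure D3:**
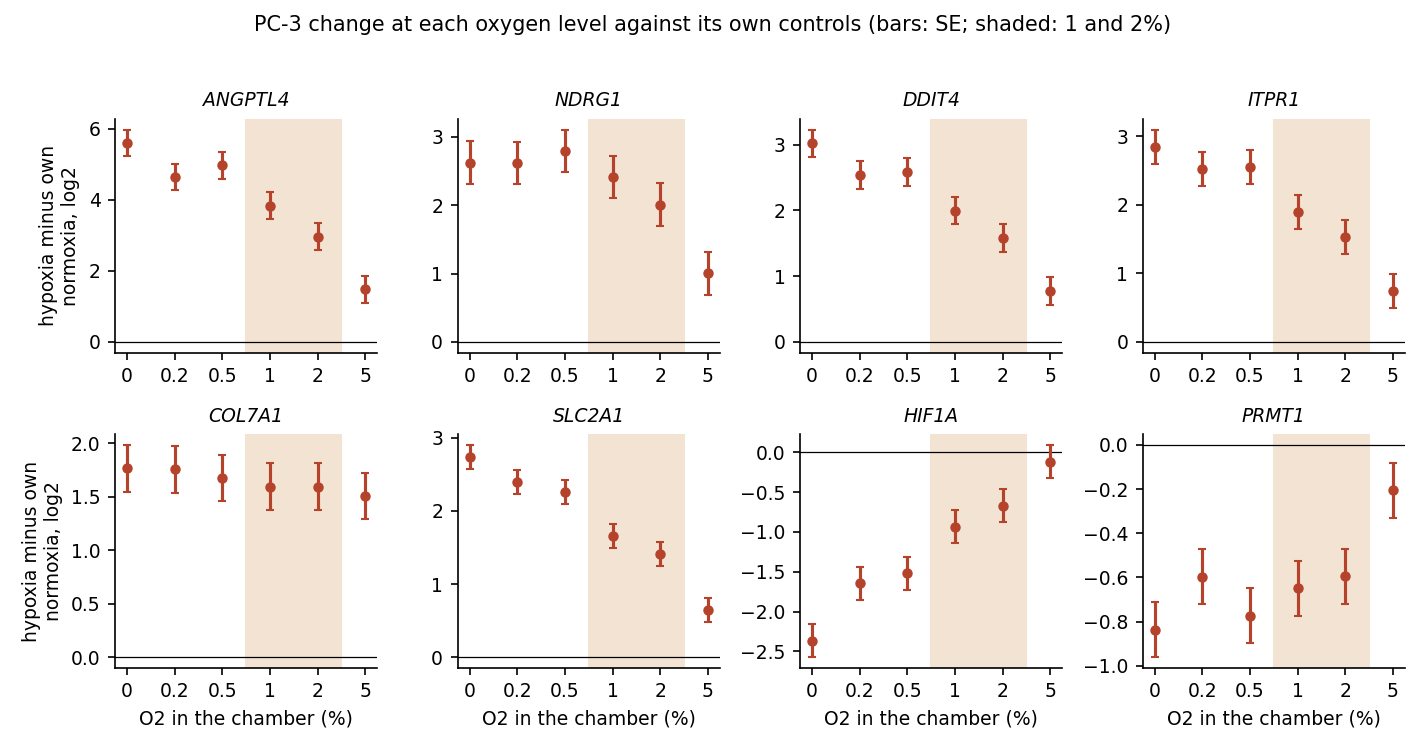
Change of 8 genes in PC-3 (each oxygen level minus its own normoxia controls, log2 intensity) at 6 oxygen levels between 0 and 5% O2, with 1 and 2% shaded; points are estimates from the 24-array fit and bars their SE. ANGPTL4 goes from 5.60 at 0% to 1.48 at 5%, while COL7A1 stays between 1.51 and 1.77; the vertical axes differ in range.

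PC-3 was also set against 22Rv1, a line from a xenograft, at the same levels. In a fit of 16 arrays the effect differed between PC-3 and 22Rv1 for 1004 of 14541 genes (6.9%), 415 with the higher effect in PC-3 and 589 with the lower, and for 2667 (18.3%) with the pairs as a block. In this fit 447 genes were higher and 212 lower in hypoxic PC-3, and 1851 higher and 1939 lower in hypoxic 22Rv1. The split of the 1004, 41.3% higher in PC-3, became 31.1% of 264 calls under median centring. Without the first 2% hypoxia array of 22Rv1 the count was 538, and without its first control for 1% it was 626.

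HIF target genes mostly rose less in PC-3. Of the 22 measured, 13 had a smaller effect in PC-3 and 0 a larger one, with median changes of 1.05 in PC-3 and 2.08 in 22Rv1. Among all 12590 genes 441 had a lower effect in PC-3 and 395 a higher one, which the list counts here are to be read beside. PFKFB4 had changes of 1.497 (PC-3) and 3.87 (22Rv1; difference -2.37 ± 0.14, limma adjusted p = 1.91e-07), and ADM of 1.70 (PC-3) and 4.27 (22Rv1; difference -2.57 ± 0.31, limma adjusted p = 0.000208). ANGPTL4 went against this order, at 3.40 in PC-3 and 2.60 in 22Rv1, a difference of 0.80 ± 0.31 that did not pass (limma adjusted p = 0.142). Of 18 glycolysis genes 11 had a smaller effect in PC-3 and 0 a larger one. Among 31 DNA replication genes 21 had an effect in PC-3 above that in 22Rv1, with medians of -0.19 in PC-3 and -0.92 in 22Rv1. MCM2, a subunit of the replicative helicase, had a change of -0.12 ± 0.09 in PC-3 and of -1.22 in 22Rv1. Of 14 heat shock chaperones 9 likewise differed, with medians of 0.03 in PC-3 and -0.44 in 22Rv1.

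Some of the leading rises of PC-3 were not seen in 22Rv1. SLCO4A1 rose by 1.62 in PC-3 and had a change of 0.08 in 22Rv1, where it was detected on all 8 arrays (difference 1.54 ± 0.18, limma adjusted p = 0.000144). In PC-3 the rises of ADAM8 and ITGB4 were 1.54 and 1.38, beside changes of 0.18 and 0.13 in 22Rv1 (differences 1.36 ± 0.30 and 1.25 ± 0.26, limma adjusted p = 0.0151 and 0.0109). COL7A1 rose in both lines, by 1.60 (PC-3) and 1.57 (22Rv1), with a difference of 0.03 ± 0.19 that did not pass.

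**Figure D4:**
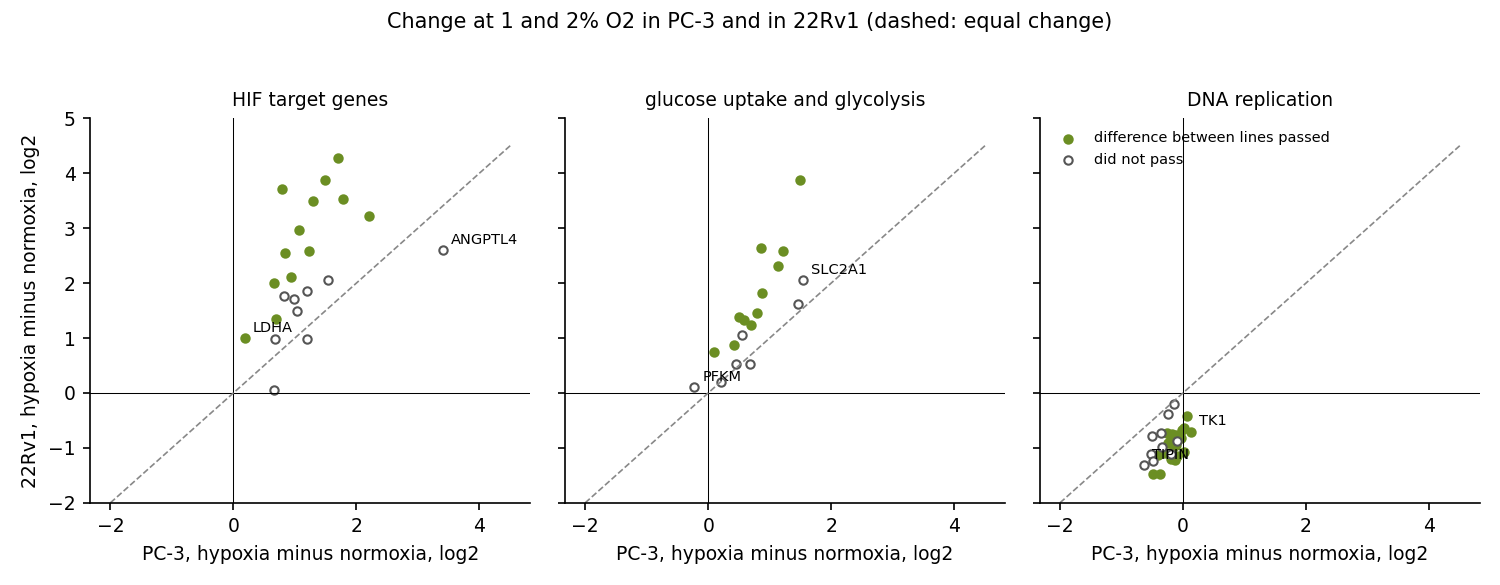
Change at 1 and 2% O2 (hypoxia minus normoxia, log2 intensity) in PC-3 (horizontal) and in 22Rv1 (vertical) for the measured genes of 3 lists, with filled points where the difference between the lines passed, open points where it did not, and the dashed line at equal change. HIF target and glycolysis genes lie mostly above the line and DNA replication genes below it, at medians of -0.19 in PC-3 and -0.92 in 22Rv1.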

How the data were processed

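Total RNA of PC-3 and 22Rv1 cells was read on Illumina bead arrays. For each probe and array the authors deposited a bead intensity, not background subtracted as far as its values show, and a detection p-value. The submitters' processing notes name BeadStudio 3.1.3.0. Its column names carry A or B for the replicate, taken as replicates 1 and 2 and borne out by equal probe ranks with the second deposited intensity table, which was normalized by the authors in a way not given in the sources used here and served as an alternative. The labels of 46 arrays matched between the tables, and those of 2, both of 22Rv1 at 0.2% O2 and unused here, were exchanged.

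Background was corrected with neqc of limma 3.58.1 (offset 16, negative controls inferred from detection p-values), and the 48 arrays were then quantile normalized; log2 values were computed from the deposited intensities, and a fold is the ratio of hypoxia over normoxia on that scale, computed from the deposited intensities. Probes detected at p under 0.01 on at least 2 arrays of a fit were kept and the brightest probe stood for a gene, so 16921 probes gave 12590 genes, 9030 with a current symbol, 1519 reached through a synonym and 2041 under an unmatched array symbol. Dim probes are compressed toward background, and the number of arrays limits the precision. The main fit was ~ oxygen level + hypoxia on 8 arrays (lmFit, eBayes with trend, 5 residual degrees of freedom), with Benjamini-Hochberg adjustment over all genes and a threshold of 0.05. Differences between levels came from 24 group-mean-coded PC-3 arrays, and between lines from 16 arrays. The scripts were tested on simulated data. Slide and scan dates were not used.

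A gene undetected on every array of its lower group has a bound, taken against the lowest detected signal of each array. Named were the 20 largest rises and 12 largest falls with 1 sign in all 4 pairs, the 5 largest differences each way between lines, all HIF target genes and 4 members with the largest change of each other list; other members named were chosen after their values were seen, and a few genes that these rules reach are not reported here. The members and lists were chosen with earlier results of these data known. Same-numbered hypoxia and control arrays of PC-3 deviated together from their group means, at correlations of 0.36 to 0.51 over 6 levels (0.22 to 0.42 between levels), so the pairs were also fitted as a block. Promoters were matched by symbol. R 4.3.3, data.table (1.17.8), Python 3.11.15, pandas 2.3.3 and matplotlib 3.10.9 were used.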

Additional observations from a re-analysis of the deposited data

Results flagged for a closer look

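The 9 genes below had effects at 1 and 2% O2 that differed between PC-3 and 22Rv1 by the test of the difference itself (limma, adjusted over 14541 genes), 4 lower and 5 higher in PC-3. With 2 arrays in a group, no array could be tested as lying apart from the others.

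Lower in PC-3 were MT3 (difference -4.35 ± 0.20, SE), COXFA4L2 (-3.55 ± 0.20, NDUFA4L2 on the array), BHLHE40 (-2.93 ± 0.14) and RAB31 (-2.71 ± 0.18). MT3, a brain-type metallothionein, and COXFA4L2, a respiratory chain relative, were detected on none of the 8 PC-3 arrays and on all 4 hypoxia arrays of 22Rv1, so the PC-3 side has no measured change and the fitted differences are not measured sizes. In 22Rv1 MT3 read 7.92 to 9.84 in hypoxia and 4.47 to 4.67 in normoxia, where no array detected it, and COXFA4L2 8.12 to 9.29 in hypoxia and 4.63 to 5.19 in normoxia, where 2 of 4 did. BHLHE40 rose in both lines, and RAB31 had a change of -0.22 in PC-3 and 2.49 in 22Rv1.

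Higher in PC-3 were OSBP2 (difference 1.69 ± 0.22), ITPR1 (1.64 ± 0.23), SLCO4A1 (1.54 ± 0.18), MT1X (1.47 ± 0.26) and DEPP1 (1.45 ± 0.35). ITPR1 and DEPP1 were detected on no 22Rv1 array, so the 22Rv1 side has no measured change and these fitted differences are likewise not measured sizes. OSBP2 rose by 1.39 in PC-3 and had a change of -0.31 in 22Rv1, where it was detected on 1 of 4 hypoxia and 4 of 4 normoxia arrays. MT1X, a metallothionein whose close relatives share sequence, had a change of 0.41 in PC-3, which did not pass, and of -1.06 in 22Rv1.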

How the results depend on the processing

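The count of 617 genes stayed within 1.5 times under 12 of 26 other settings. None of the 75 called genes that were named by rule reversed under any of them. It was 273 with median centring (235 shared), 1052 with array weights, 2299 with the 12 PC-3 normoxia arrays pooled, and 96 at 1% O2 alone and 35 at 2% O2 alone. With the pairs as a block it was 2777, which held all 617, and with replicate number and level as terms 2156. Leaving out 1 array in turn gave 258 to 646, and leaving out the 2 arrays that detected the fewest probes, a setting chosen after seeing the data, gave 228. The effect at 1 and 2% differed from that at 0.2 and 0.5% at 0 to 2 genes without 1 array (2 without the second 2% hypoxia array) and 259 with the replicate block, and from that at 5% at 69 with the block. The difference between the lines was called for 264 genes with median centring, 2667 with the block and 538 to 968 without 1 array. Median centring moved the median difference of all genes to -0.22 between 1% and 2%, 0.23 against 0.2 and 0.5%, and -0.23 against 5%. The causes were not tested.

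Of the 75 genes named by rule that had a call, 21 kept it under every one of the 26 settings that measured them. These included ANGPTL4, NDRG1, DDIT4, COL7A1, SLC2A1 and BNIP3. The other 54 lost it under at least 1: 18 under median centring, 4 to 22 without 1 array, 24 without the 2 arrays that detected the fewest probes, 40 at 1% alone and 54 at 2% alone. All 12 of the largest falls were among the 54, as were GYG1, SDHC, PRIM1, POLR1E, SDF2L1, SLC11A2 and CCN2, the other falls named by rule. Other called members named above, such as ALDOC, HK2, PGK1, PDGFB, PLOD1, CCNE2, GINS2 and POLE2, were not followed gene by gene through the settings. The block called 10.8% of all genes higher and 11.3% lower, the shares for the counts that follow. Higher and lower calls were 2 and 1 of 15 unfolded protein response genes, and 2 and 2 of 12 integrated stress genes. For 10 iron genes they were 0 and 3, for 11 YAP targets 0 and 2, and for 13 channel genes 5 and 0. The 12 HIF subunit, sensor and feedback genes had 4 and 1, and 9 glycogen genes 4 and 1. Collagen enzymes had 7 and 0 of 10, adhesion genes 6 and 0 of 15, and clock genes 3 and 0 of 9. TGF-beta and ID genes had 2 and 1 of 11. In the glycolysis, mitophagy, lipid and mTORC1 lists the block turned 0 into 1 lower. Probes near background and 2 arrays per group limit which small differences can be seen.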
